A study of Mus musculus with 69 samples.

Results

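The change of the hippocampal transcriptome between P22 (postnatal day 22, the day of weaning) and P66 (adulthood) was examined in wildtype male mice that had been separated from the dam as pups. The comparison rests on the 21 libraries of separated wildtype animals, 11 taken at P22 and 10 at P66, out of 69 libraries in the series, and they were chosen by their labels alone. Each library came from the hippocampus of 1 animal. All 21 animals carried the wildtype genotype and came from litters that spent 3 h of each day between P1 and P14 away from the dam, at a random time of the light phase. They came from 2 rounds of breeding (cohorts), with 6 and 5 animals of cohorts 1 and 2 at P22 and 6 and 4 at P66. For comparison, 15 control wildtype animals (8 at P22, 7 at P66) came from litters that were handled and otherwise left with the dam, and 17 separated Cdh13 knockout animals (10 at P22, 7 at P66) lacked the gene of T-cadherin, an adhesion molecule. The labels name no litters and no hour of collection. The tissue was cut from frozen slices. Cdh13 lies outside the genes analysed here, so the genotype labels were not checked by its level.

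In the weeks between weaning and adulthood the rodent hippocampus ends a long phase of construction. Oligodendrocyte precursors differentiate and wrap axons in myelin, a stack of membrane rich in cholesterol and galactolipids, and the enzymes that build it are most in demand while the sheath grows. The dentate gyrus keeps producing granule neurons throughout life, at a rate that declines with age, and young neurons carry their own set of cytoskeletal and guidance proteins. Blood vessels stop sprouting, the surrounding collagen is laid down early and then turns over slowly, and neurons take on their adult set of ion channels and receptors.

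The table analysed here holds 9930 protein-coding genes, those of chromosomes 1 to 7 and of chromosome 8 up to the point where the table ends. Depth in these genes ran from 11.5 to 15.1 M counts (M, mega) over the 21 libraries and from 11.3 to 16.4 M over the 69. Levels are given as CPM (counts per M counts of these genes), which allow a gene to be compared between animals but not different genes with each other, since they are not divided by gene length. Markers of the labelled tissue were present in every library: the granule cell gene Prox1 lay at 193 to 437 CPM and Neurod6 of pyramidal neurons at 376 to 698 CPM. Choroid plexus, the epithelium that lies against the hippocampus in the ventricle, was carried along to a varying degree. The summed level of 15 choroid plexus genes was 312 to 803 CPM at P22 and 236 to 787 CPM at P66, lowest in the P66 libraries C2-42 and C1-57 (cohort and animal number), and its defining gene Folr1 ran from 0.502 to 29.5 CPM. In a principal component analysis the first component, with 28.5% of the variance, placed all P22 animals between -15.0 and -5.30 and all P66 animals between 3.39 and 19. The second, with 12.3%, was led by choroid plexus genes. The choroid plexus score, the mean log2 CPM of these genes in a library, had a correlation of -0.77 with the second component. With the first it had one of -0.56, and the choroid plexus gene Aqp1 was among the genes leading that component.

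Of 6896 genes tested, 2198 (31.9%) passed an adjusted p under 0.05 in edgeR's quasi-likelihood test with cohort as a covariate. Such genes are said to have risen, fallen or been called. At P66 1048 (15.2%) were higher and 1150 (16.7%) lower. Most of these changes were small: the median size was 0.24 on the log2 scale, and 1925 (87.6%) of the called genes changed by less than 1.5-fold. Changes of at least 2-fold were mostly falls, with 58 genes (0.841%) lower and 9 (0.131%) higher. In 205 genes (2.97%) every P66 animal lay below every P22 animal, and in 63 genes (0.914%) every P66 animal lay above. The direction was the same in both cohorts for 2195 of the 2198 called genes (99.9%). These genes were called from both cohorts together, which favours such agreement, so it is no independent check. The age change differed between the cohorts in 0 genes (0%) by edgeR, with 279 at an unadjusted p under 0.05 and a smallest adjusted p of 0.903. A level difference between the cohorts was called in 0 genes (0%), with 233 at an unadjusted p under 0.05. The median log2 change of all tested genes was 0.01, beside which the medians of the gene lists are given.

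Of the 58 genes that fell at least 2-fold, 18 belong to the lists described here, and 7 of these are genes of myelin and mature oligodendrocytes. The plot of the list members sets these lists side by side.

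**Figure D1:**
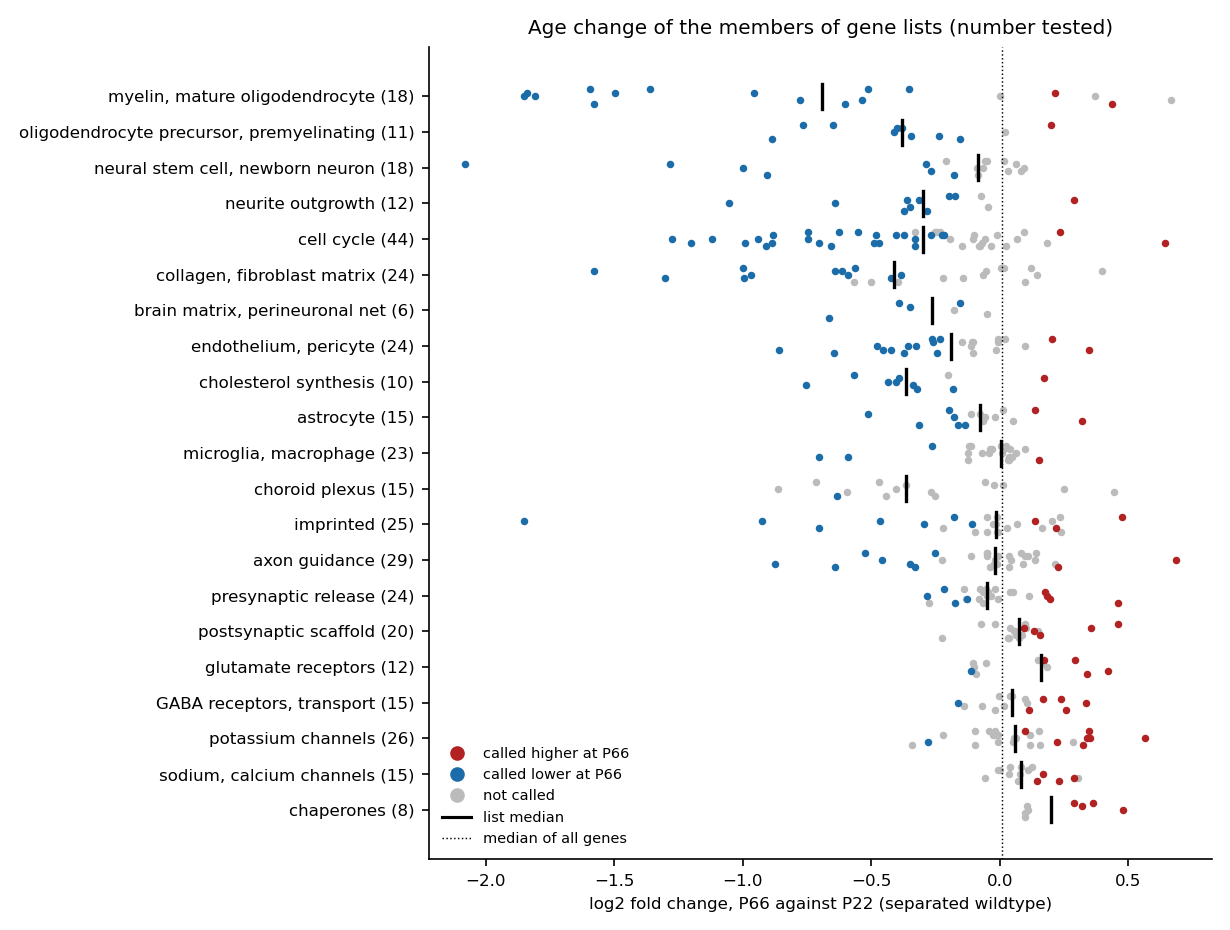
Each point is a tested member of a gene list, placed by its log2 fold change from P22 to P66 in separated wildtype animals (horizontal axis). Red points were called higher and blue points lower at an adjusted p under 0.05, grey points were not called, the thick bar is the list median and the dotted line the median of all tested genes. The myelin list has the lowest median, -0.69, and the channel, receptor and chaperone lists have most of their called members on the right.

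Myelin genes fell furthest. Of the 36 listed genes of myelin and mature oligodendrocytes 18 lay in the table, and all 18 were tested. Among them 13 fell and 2 rose, beside 16.7% and 15.2% of all genes, and the list median was -0.69. Fewer oligodendrocytes and less of these RNAs per cell cannot be told apart in bulk tissue, here or for any cell type below.

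Gsn (gelsolin, chr2:35256380-35307892, GRCm38), an actin-severing protein of myelinating oligodendrocytes, lay at 283 to 546 CPM at P22 (median 392) and at 85.5 to 144 CPM at P66 (median 111). All P66 animals were below all P22 animals, and the log2 change was -1.84 ± 0.11 (SE; adjusted p = 1.8e-11). It was -1.89 in cohort 1 and -1.77 in cohort 2. Mag, the myelin-associated glycoprotein at the face between sheath and axon, had 465 to 1066 CPM at P22 (median 698) and 162 to 311 at P66 (median 241). The ages did not overlap (log2 change -1.58 ± 0.13). Cldn11, whose protein forms the tight junctions of the sheath, went from 478 to 885 CPM (median 555) to 122 to 274 CPM (median 164), again without overlap (-1.81 ± 0.13). For Ugt8a, the enzyme that makes the myelin lipid galactocerebroside, the levels were 192 to 479 CPM at P22 (median 290) and 71.9 to 142 at P66 (median 78.1), a log2 change of -1.85 ± 0.16 with no overlap.

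Mal, Tspan2 and Adamts4 also fell by more than 2-fold without overlap between the ages, with log2 changes of -1.59, -1.50 and -1.36. Mal encodes a proteolipid of compact myelin, Tspan2 a tetraspanin and Adamts4 a protease that cuts matrix proteoglycans. Smaller falls were seen in the transcription factor gene Nkx6-2 (-0.96), in Ppp1r14a (-0.78), in the connexin gene Gjc3 (-0.60) and in the cytoskeletal gene Ermn (-0.54). Klk6 (0.67), Hapln2 (0.37) and Plekhb1 (0.00) were not called. The 2 members that rose were Qdpr and Car2. Qdpr, which regenerates the cofactor tetrahydrobiopterin, rose from 189 to 229 CPM (median 214) to 254 to 328 CPM (median 289). Every P66 animal was above every P22 animal, and the log2 change was 0.44 ± 0.04 (adjusted p = 7.27e-08). Car2, a carbonic anhydrase, rose by 0.21 with overlapping groups. An antisense gene lies across Qdpr, and Tspan2 overlaps Tshb on the other strand. The strand setting of the counting is not given in the sources used here, so reads of such pairs cannot be told apart.

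Genes of oligodendrocyte precursors and of cells about to myelinate fell as well, by less. Of 11 tested members 9 fell and 1, Xylt1, rose (median -0.38). Neu4, a sialidase, had 43.6 to 59.2 CPM at P22 (median 47.5) and 23 to 28.7 CPM at P66 (median 27.4). No animal of one age reached the range of the other, and the change was -0.89 ± 0.06 (adjusted p = 4.93e-11). Pdgfra, the growth factor receptor that defines the precursors, went from 152 to 196 CPM (median 162) to 113 to 140 CPM (median 121). Here too the ages were separate (-0.40 ± 0.05). Nkx2-2, a transcription factor of the lineage, changed by -0.65 and Itpr2, a calcium release channel of newly formed oligodendrocytes, by -0.38, both without overlap. Bcas1, found in cells that are beginning to myelinate, changed by -0.77 with overlapping groups.

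Cholesterol makes up much of the myelin membrane. Of 10 tested genes of the pathway and its control, 8 fell and 1 rose (median -0.37). Cyp51, lanosterol demethylase, had 182 to 230 CPM at P22 (median 193) and 120 to 152 CPM at P66 (median 136). The groups did not overlap, and the log2 change was -0.57 ± 0.05 (adjusted p = 5.01e-09). Dhcr7, which catalyses the last step to cholesterol, changed by -0.40, again without overlap. Falls were also called in Mvk (-0.43), Fdps (-0.34), Hsd17b7 (-0.32) and Pmvk (-0.18). The riser was Insig2 (0.17), a brake on the pathway.

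**Figure D2:**
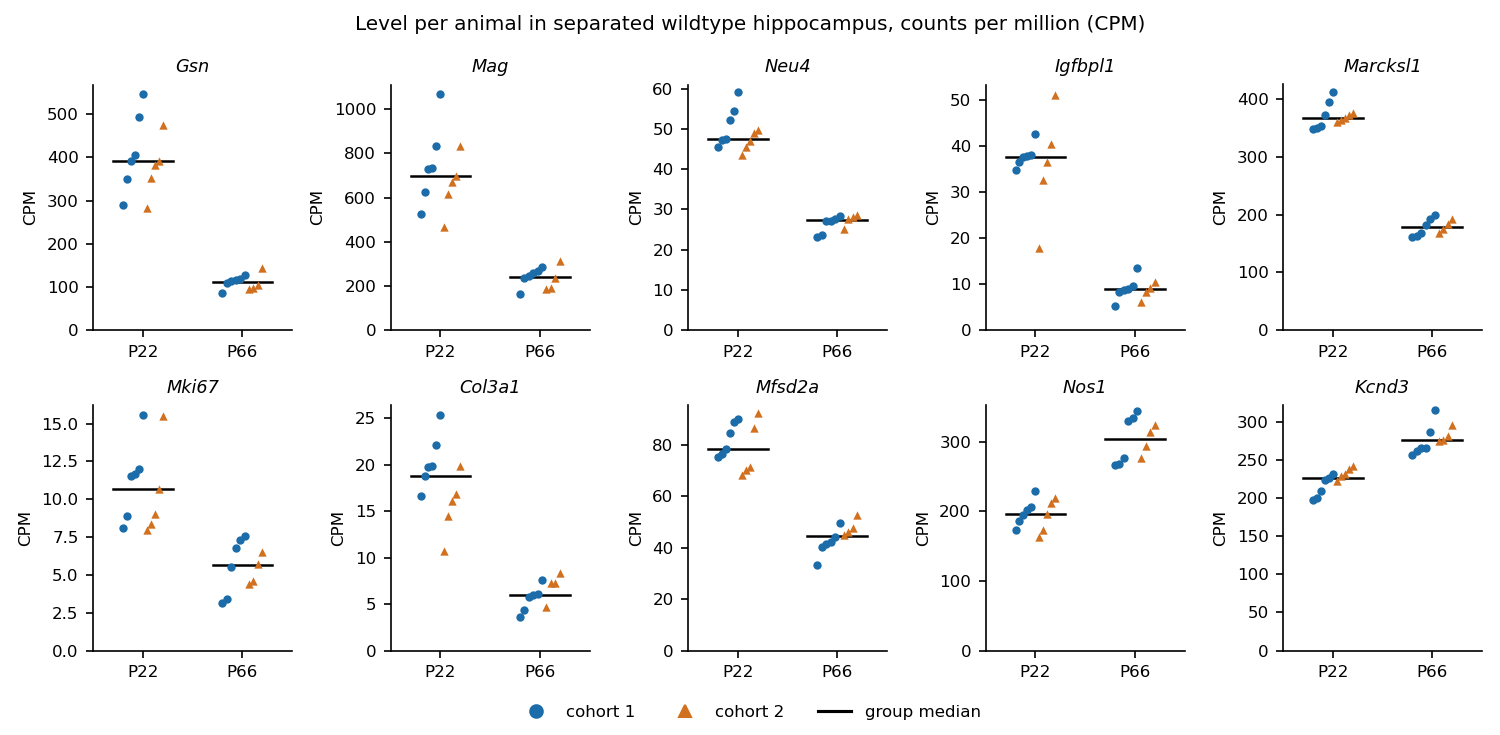
Level in CPM (vertical axis, starting at 0) of 10 genes in each of the 11 P22 and 10 P66 separated wildtype animals, with circles for cohort 1, triangles for cohort 2 and a bar at the group median. The 10 genes shown are examples in which the ages do not overlap: 8 fell, and Nos1 and Kcnd3 rose. Of all 6896 tested genes, 205 (2.97%) lay wholly lower and 63 (0.914%) wholly higher at P66.

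Genes of newborn neurons and growing neurites formed the next group. Of 18 tested genes of neural stem cells and newborn neurons 7 fell and 0 rose (median -0.09). Igfbpl1 (chr4:45809468-45826923), a secreted protein of newborn neurons, had 17.8 to 51.2 CPM at P22 (median 37.7) and 5.33 to 13.4 CPM at P66 (median 8.85). The ages did not overlap, and the change was -2.08 ± 0.15 (adjusted p = 5.17e-10), with -2.08 in each cohort. Draxin, a secreted axon guidance protein, changed by -1.28, and Mex3a, an RNA-binding protein of proliferating progenitors, by -0.91, both without overlap. Neurog2, a proneural transcription factor, went from 3.56 to 6.65 CPM (median 4.78) to 1.64 to 3.74 CPM (median 2.22). Its groups overlapped at their edges (-1.0 ± 0.14). Of the stem cell genes in the list Notch1 fell by 0.18 on the log2 scale, while Sox2 (0.06), Hes5 (-0.09) and Nes (-0.21) were not called. The fall of Neurod1 (-0.29) was called in only 12 of the 21 fits that each left out 1 library.

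Of 12 tested neurite outgrowth and cytoskeleton genes 9 fell and 1 rose (median -0.30). Marcksl1 (chr4:129513581-129515985), an actin-binding protein of growing neurites, gave the smallest p of all the genes named here. It lay at 348 to 413 CPM at P22 (median 368) and at 161 to 199 CPM at P66 (median 179), with a wide gap between the ages and a log2 change of -1.05 ± 0.04 (adjusted p = 1.92e-14). Dpysl5, a collapsin response mediator of growth cones, went from 116 to 166 CPM (median 147) to 81.1 to 105 CPM (median 93.4), without overlap (-0.64 ± 0.06). Stmn2, a tubulin-binding protein of the growth cone, changed by -0.37 and Fscn1, an actin bundler, by -0.35. The member that rose was Map2, the microtubule protein of mature dendrites. It went from 1971 to 2249 CPM (median 2087) to 2400 to 2819 CPM (median 2561), and all P66 animals were above all P22 animals (0.29 ± 0.04, adjusted p = 2.9e-06).

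Axon guidance genes were mixed. Of 29 tested, 7 fell and 2 rose (median -0.02). The receptor gene Epha8 changed by -0.87 without overlap, and Sema3c, a secreted semaphorin, by -0.64. Ntng1, the membrane-anchored netrin G1, rose from 53.7 to 91.6 CPM (median 65.2) to 80.8 to 132 CPM (median 113). The groups overlapped between 80.8 and 91.6 CPM, and the log2 change was 0.69 ± 0.09 (adjusted p = 2.24e-06).

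Most of the cell cycle genes that changed fell. Of 44 tested, 24 fell and 2 rose (median -0.30), and Depdc1a was too low to be tested. Mki67, the nuclear protein used to mark dividing cells, had 7.97 to 15.6 CPM at P22 (median 10.7) and 3.13 to 7.56 CPM at P66 (median 5.63). The ranges did not touch (-0.99 ± 0.16, adjusted p = 5.81e-05). Prc1, which bundles the microtubules of the spindle midzone, had 4.46 to 7.26 CPM at P22 (median 5.43) and 2.14 to 3.82 CPM at P66 (median 3.08), again without overlap (-0.88 ± 0.11). Melk, a kinase of dividing progenitors, changed by -1.28, Ube2c, an enzyme of the anaphase-promoting complex, by -1.20, the spindle checkpoint kinase gene Bub1 by -1.12 and Cdc20, an activator of the same complex, by -0.89. Ccna2, cyclin A2, changed by -0.66.

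The 2 members that rose were Smc2, a condensin subunit, and Ccnd1, cyclin D1. Smc2 went from 21.7 to 35.4 CPM (median 28.4) to 30.5 to 53 CPM (median 42.9), with overlapping groups (0.64 ± 0.10). Ccnd1 changed by 0.24. Pcna, the clamp of the replication fork, had a median of 89.4 CPM at P22 and 89.7 at P66 and was not called (-0.03 ± 0.04). In cohort 2 alone, with 5 against 4 animals, 13 cell cycle genes fell, and in cohort 1 alone 18.

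The promoters of the cell cycle genes are shown because genes of mitosis are known to share 2 short elements, the CHR element (TTTGAA or TTCGAA) and the CCAAT box. Both were searched on both strands from 250 bases before to 50 after the start of transcription in RefSeq (GRCm38.p6). Of the 24 genes that fell, 20 had a promoter in the table. A CHR element was found in 14 of them (70.0%) and CCAAT in 14 (70.0%). In the 15 uncalled cell cycle genes with a promoter the numbers were 5 (33.3%) and 13 (86.7%). Over all 32851 promoters of the table the shares were 19.2% and 37.4%, and over the 5498 tested genes with a promoter 17.0% and 42.2%. The 2 motifs overlapped in 0.146% of all promoters and in 0 of the genes that fell. A match gives letters only, and no binding was measured here. Below are the 250 bases before the start of 4 genes that hold both motifs and of Melk, which holds neither and fell by 1.28 on the log2 scale. They are written 5′ to 3′ on the strand of the gene, with capitals marking the motifs, also where these lie on the other strand.
Mki67, chr7:135716380-135716629, minus strand: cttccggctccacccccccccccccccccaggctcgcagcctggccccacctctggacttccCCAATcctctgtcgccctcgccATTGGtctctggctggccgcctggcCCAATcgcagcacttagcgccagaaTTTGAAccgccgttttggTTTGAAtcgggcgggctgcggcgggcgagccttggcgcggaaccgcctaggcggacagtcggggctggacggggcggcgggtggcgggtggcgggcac
Prc1, chr7:80294226-80294475, plus strand: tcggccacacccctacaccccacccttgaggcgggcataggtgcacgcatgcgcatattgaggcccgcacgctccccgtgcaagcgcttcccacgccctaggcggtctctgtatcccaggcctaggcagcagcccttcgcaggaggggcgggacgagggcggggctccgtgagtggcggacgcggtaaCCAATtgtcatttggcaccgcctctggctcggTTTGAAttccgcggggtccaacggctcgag
Cdc20, chr4:118437344-118437593, minus strand: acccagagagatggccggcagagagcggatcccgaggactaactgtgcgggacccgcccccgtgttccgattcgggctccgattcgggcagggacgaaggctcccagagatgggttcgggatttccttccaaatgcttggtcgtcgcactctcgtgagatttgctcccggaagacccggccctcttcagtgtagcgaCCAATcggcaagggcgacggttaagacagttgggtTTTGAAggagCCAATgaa
Ube2c, chr2:164769679-164769928, plus strand: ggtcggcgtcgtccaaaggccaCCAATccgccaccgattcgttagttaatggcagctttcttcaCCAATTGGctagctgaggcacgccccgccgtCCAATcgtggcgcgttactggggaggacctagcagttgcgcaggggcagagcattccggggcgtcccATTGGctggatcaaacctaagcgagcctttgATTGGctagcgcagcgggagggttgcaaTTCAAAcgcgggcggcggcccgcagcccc
Melk, chr4:44300667-44300916, plus strand: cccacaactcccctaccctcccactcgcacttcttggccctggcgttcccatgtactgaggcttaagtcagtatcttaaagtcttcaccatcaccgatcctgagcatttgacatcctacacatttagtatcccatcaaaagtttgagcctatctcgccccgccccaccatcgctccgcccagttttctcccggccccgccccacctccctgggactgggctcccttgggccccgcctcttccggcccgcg

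Mki67 holds 2 CHR elements and 3 CCAAT boxes in this stretch, Prc1 1 of each, Cdc20 1 and 2, and Ube2c 1 and 6. The 6 of Ube2c include a pair that overlaps on opposite strands.

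Of 24 tested genes of collagen and the fibroblast matrix 11 fell and 0 rose (median -0.41). Col3a1, a fibrillar collagen of vessel walls and meninges, had 10.7 to 25.3 CPM at P22 (median 18.8) and 3.62 to 8.34 CPM at P66 (median 6.01). The ages were separate, and the change was -1.58 ± 0.15 (adjusted p = 1.73e-08), with -1.88 in cohort 1 and -1.18 in cohort 2. Eln, elastin, went from 38.3 to 68.0 CPM (median 59.7) to 18.1 to 27.5 CPM (median 22.6), also without overlap (-1.30 ± 0.09). Col1a2 changed by -1.0 without overlap and Col9a3, of the fibril-associated type, by -0.97 with overlapping groups. Of 6 tested genes of the brain's own matrix 4 fell (median -0.26): the proteoglycan genes Bcan (-0.35) and Acan (-0.39) and the tenascin genes Tnc (-0.67) and Tnr (-0.16).

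Fibrillar collagens are also made in the meninges. The summed level of 7 meningeal genes was 242 to 351 CPM at P22 and 142 to 314 CPM at P66. Of them 3 rose (Thbd, Slc6a13 and Cped1) and 1, Igf2, fell (-0.47), and the list median was 0.24. The fall of Igf2 and the rise of Cped1 (0.32) were lost in some fits without 1 library, being called in 13 and 5 of 21. The part of meningeal tissue in the matrix result was not tested.

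Vessel genes fell more often than they rose. Of 24 tested genes of endothelium and pericytes 12 fell and 2 rose (median -0.19). Mfsd2a, which carries the omega-3 lipid DHA across the blood-brain barrier, had 68.4 to 92.5 CPM at P22 (median 78.6) and 33.3 to 53 CPM at P66 (median 44.6). The ages did not overlap (-0.86 ± 0.07, adjusted p = 2.86e-09). Slc16a1, which carries lactate and ketone bodies, changed by -0.48 without overlap, and Slc2a1, the glucose transporter of the barrier, went from 165 to 259 CPM (median 205) to 122 to 168 CPM (median 149), with a narrow overlap (-0.46 ± 0.07). Flt1, a receptor for the vessel growth factor VEGF, went the other way. It rose from 93.0 to 120 CPM (median 110) to 121 to 147 CPM (median 137), with all P66 animals above all P22 animals (0.35 ± 0.05, adjusted p = 5.08e-06).

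Outside the list, Angpt4, an angiopoietin, had the largest fall of any gene named here. It went from 1.6 to 2.68 CPM (median 1.80) to 0 to 0.610 CPM (median 0.167), without overlap (-3.09 ± 0.29, adjusted p = 2.23e-08). Aplnr, the apelin receptor, had 1.65 to 5.39 CPM at P22 (median 3.05) and 0.229 to 1.32 CPM at P66 (median 0.977), again separate (-1.85 ± 0.25). The adult beta globin genes, a possible sign of blood in the vessels and named after their values were seen, fell in the same animals. Hbb-bs had 390 to 1088 CPM at P22 (median 533) and 141 to 253 CPM at P66 (median 199), a change of -1.43 ± 0.14, and its neighbour Hbb-bt changed by -1.45. The 2 genes are near-identical copies, so how reads were split between them is uncertain. The cause of the globin fall and the part of blood in the vessel results were not tested.

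**Figure D3:**
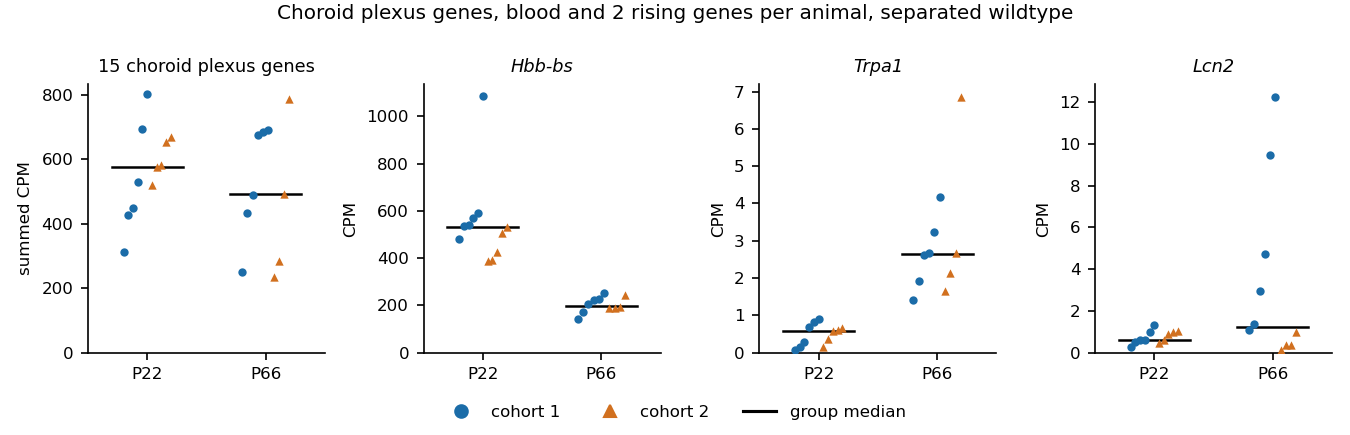
Levels per animal at P22 and P66 (vertical axes in CPM, starting at 0) of the sum of 15 choroid plexus genes, the globin gene Hbb-bs, and Trpa1 and Lcn2, which rose. Circles are cohort 1, triangles cohort 2, bars group medians. Choroid plexus values overlap between the ages, Hbb-bs and Trpa1 do not, and the high Lcn2 values are P66 animals of cohort 1.

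Changes in genes of neuronal signalling were small, and in the lists of glutamate receptors, GABA genes and ion channels more members rose than fell, beside 15.2% higher and 16.7% lower of all genes. Of 12 tested glutamate receptor genes 4 rose and 1 fell (median 0.16). The list median was 0.20 in cohort 1 and -0.08 in cohort 2, with 3 and 2 members called higher in each cohort alone. Grm3, a metabotropic receptor of glia and neurons, went from 51 to 77.4 CPM (median 65.2) to 74.8 to 100 CPM (median 86.7), with a narrow overlap (0.42 ± 0.07, adjusted p = 4.13e-05). Grm5, the main group I receptor of pyramidal cells, changed by 0.34, Gria2, the AMPA receptor subunit that limits calcium entry, by 0.29, and Grm7 by 0.17. The kainate receptor gene Grik5 fell (-0.11). Of the NMDA receptor genes Grin1 changed by -0.09 and Grin2b by 0.15, neither called. Of 15 tested genes of GABA receptors, synthesis and transport 5 rose and 1 fell (median 0.05). In cohort 1 alone 0 rose and in cohort 2 alone 2. The risers were Gabrg1 (0.34), Gabrb1 (0.26), Gabra2 (0.24), the chloride extruder gene Slc12a5 (0.17) and Gad1 (0.11), which makes GABA. Slc32a1, which loads GABA into vesicles, fell (-0.16). The calls of Gabra2 and Slc32a1 were kept in only 7 and 10 of the 21 fits without 1 library.

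Of 26 tested potassium channel genes 7 rose and 1 fell (median 0.06). Kcnd3, a channel of the transient A-type current, went from 197 to 241 CPM (median 227) to 256 to 316 CPM (median 275). All P66 animals were above all P22 animals (0.32 ± 0.04, adjusted p = 1.03e-06). Also called higher were Kcna3 (0.56), Kcnc4 and Kcng1 (0.35 each) and Kcnc1 (0.10). Of 15 tested sodium and calcium channel genes 4 rose and 0 fell (median 0.08): Cacna2d1 (0.29), Scn9a (0.23), Cacna1e (0.17) and Scn1a (0.14). This count was 2 without the P66 libraries C1-57 and C2-42, 1 in a fit of all 69 libraries, 1 in cohort 1 alone and 0 in cohort 2 alone.

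Interneuron genes changed little as a list, with 3 of 19 higher and 2 lower (median -0.05). Without the P66 libraries C1-57 and C2-42 the 2 falls were not called. The largest change in the list was that of Nos1 (chr5:117781032-117958840), the gene of neuronal nitric oxide synthase, which marks a class of hippocampal interneurons. It rose from 163 to 229 CPM (median 196) to 266 to 343 CPM (median 304). Every P66 animal was above every P22 animal, and the log2 change was 0.62 ± 0.06 (adjusted p = 5.8e-08), with 0.61 and 0.65 in cohorts 1 and 2. Of 20 tested postsynaptic and adhesion genes 5 rose and 0 fell (median 0.07), led by C1ql2 (0.46) and C1ql3 (0.36), secreted organisers of synapses of dentate granule cells. In cohorts 1 and 2 alone 1 and 0 of the 20 rose. Calb1, the calcium buffer of mature granule cells, rose by 0.34. Of 16 tested genes of the dentate gyrus and CA fields 3 rose, namely these, and 2 fell (median 0.05). Of 24 presynaptic genes 4 rose and 4 fell (median -0.05), 16.7% each way, which is near the 15.2% and 16.7% of all genes. Syt17, a synaptotagmin, changed by 0.46 and Snap25, a fusion protein, by 0.18. Slc17a7, the vesicular glutamate transporter, changed by -0.22 and Stx1a, a syntaxin, by -0.28.

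Glia other than oligodendrocytes moved less. Of 15 tested astrocyte genes 6 fell and 2 rose (median -0.08). Ttyh1, a membrane protein of astrocytes and progenitors, went from 1099 to 1212 CPM (median 1172) to 878 to 1018 CPM (median 937), without overlap (-0.31 ± 0.03, adjusted p = 1.73e-08). The glutamate transporter gene Slc1a2 changed by -0.16 and Mfge8 by 0.32. Of 23 tested genes of microglia and macrophages 3 fell and 1 rose (median 0.01), and the microglial genes P2ry12, Tmem119, C1qa and C1qb were not called, with log2 changes of 0.01, 0.02, 0.02 and -0.03. The falls were in Mrc1 (-0.59) and Cd163 (-0.70), scavenger receptors of macrophages around vessels and in the meninges, and in the transcription factor gene Spi1 (-0.26). Choroid plexus genes were not called, with the exception of Msx1 (-0.63), and their median was -0.37. Of 11 ependymal genes 2 fell, Mia (-1.13) and Rarres2 (-0.61), and the median was -0.41. The choroid plexus signal varied within both ages as given above, and its part in these medians was not tested. Of 14 tested genes of antigen presentation, interferon response and complement 2 fell (14.3%) and 1 rose (7.14%), also below the shares of all genes. Of 5 genes of neighbouring thalamus 1 rose, and of 5 genes of the stress axis 1 fell and 1 rose.

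Growth factor genes fell in 7 of 15 cases and rose in 4 (median -0.17). Igfbp7 changed by -0.48, Ptn, pleiotrophin, by -0.26 and Mdk, midkine, by -0.27. The risers were Igfbp5 (0.25), Ntrk3 (0.16), Igf1r (0.14) and Sort1 (0.11). In each cohort alone 0 of the 15 rose, and 6 and 1 fell in cohorts 1 and 2. Bdnf changed by -0.20 and was called in 8 of the 21 fits without 1 library. Among 14 tested genes of chromatin and DNA methylation 6 fell and 1 rose (median -0.09). Tet3, which oxidises methylated cytosine, had 169 to 199 CPM at P22 (median 178) and 130 to 152 CPM at P66 (median 138), without overlap (-0.38 ± 0.04, adjusted p = 1.07e-07). Ezh2, the histone methyltransferase of Polycomb, changed by -0.53.

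Of 25 tested imprinted genes 7 fell and 3 rose (median -0.01). Mkrn3 (chr7:62417593-62420139), a paternally expressed ubiquitin ligase gene known for its role in the timing of puberty, had 4.83 to 7.93 CPM at P22 (median 6.47) and 1.07 to 2.80 CPM at P66 (median 1.58). The ages did not overlap, and the change was -1.85 ± 0.13 (adjusted p = 6.27e-10). Peg12, on the same chromosome, changed by -0.93, Cdkn1c, a brake on the cell cycle, by -0.70, and Cd81 by -0.29. Peg10 changed by 0.48. Snrpn changed by -0.18, and Ndn (0.03) and Peg3 (0.07) were not called.

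Of 8 tested chaperone genes 4 rose and 0 fell (median 0.20), with 1 called in cohort 1 alone and 4 in cohort 2 alone. Hsph1, a partner of HSP70, had 651 to 784 CPM at P22 (median 724) and 822 to 955 CPM at P66 (median 886), without overlap (0.29 ± 0.04). Hspb1 changed by 0.48, Hspa4l by 0.36 and Hspa5, the HSP70 of the endoplasmic reticulum, by 0.32. Circadian genes were split, with 3 of 10 higher and 2 lower, and with 1 higher without the P66 libraries C1-57 and C2-42. Arntl, which encodes the clock activator BMAL1, rose from 73.2 to 96 CPM (median 87.8) to 106 to 125 CPM (median 113), without overlap (0.42 ± 0.04, adjusted p = 1.25e-07). Its output genes Dbp (-0.50) and Ciart (-0.52) fell. Both calls were lost in cohort 1 alone, where the changes were -0.25 and -0.36, and held in cohort 2 alone (-0.86 and -0.73). Since the hour of collection is not given, time of day and age cannot be told apart here. Glycolysis genes fell in 4 of 15 cases and rose in 1. Of 8 genes known to respond to glucocorticoids 3 fell, Hif3a (-0.88), Sult1a1 (-0.76) and Map3k6 (-0.44), and 2 rose. The call of Map3k6 was kept in 12 of the 21 fits without 1 library. The risers were Pdk4 (0.41) and Lcn2, in which the cohorts went opposite ways, as given below. Immediate early genes rose in 4 of 12 cases, Fosb by 0.52 and Nr4a2 by 0.42 among them, and fell in 2. The falls were Nptx2 (-0.56), which had the largest change and the smallest p of the list, and Bdnf (-0.20). Of 36 cytosolic ribosomal protein genes 2 rose and 5 fell (median 0.01), led by Rplp0 (-0.37). Among mitochondrial ribosomal genes 2 of 36 rose and 3 fell, and of 36 genes of oxidative phosphorylation 7 fell and 0 rose (median -0.06), beside 15.2% higher and 16.7% lower of all tested genes.

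Large rises were few. Trpa1 (chr1:14872648-14918862), a cation channel opened by irritants, had 0.0770 to 0.912 CPM at P22 (median 0.590) and 1.40 to 6.85 CPM at P66 (median 2.64). All P66 animals were above all P22 animals, and the log2 change was 2.57 ± 0.33 (adjusted p = 2.42e-06). Wnt16, a Wnt ligand, went from 0.597 to 1.24 CPM (median 0.893) to 1.30 to 3.60 CPM (median 2.09), also without overlap (1.25 ± 0.18). Ntn5, of the netrin family, had 10.6 to 23.5 CPM at P22 (median 13.8) and 29.8 to 48.9 CPM at P66 (median 37.2), without overlap (1.32 ± 0.13, adjusted p = 7.67e-08). Sec1, a fucosyltransferase gene, changed by 1.19 without overlap. Sec1 and Ntn5 share 10381 bases of chromosome 7 on opposite strands, so their reads cannot be told apart without the strand.

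Lcn2, the iron-siderophore-binding protein lipocalin 2, was called with a log2 change of 1.80 ± 0.54 (adjusted p = 0.0132), but the cohorts went opposite ways. It was 2.86 in cohort 1 and -0.84 in cohort 2. At P22 the levels were 0.256 to 1.34 CPM (median 0.616). At P66 the animals of cohort 1 had 9.46, 12.3, 4.72, 1.36, 2.97 and 1.09 CPM, and those of cohort 2 had 0.144 to 0.970 CPM. The 4 values of 2.97 CPM and above were all in cohort 1. Among the largest falls, Rab7b, a GTPase of late endosomes, went from 11.3 to 23.4 CPM (median 14.6) to 2.44 to 4.08 CPM (median 3.65), without overlap (-2.15 ± 0.13). Slc45a3, a sugar transporter gene known from oligodendrocytes, changed by -2.07 and Alox5, 5-lipoxygenase, by -1.62, both without overlap.

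The same maturation was measured in control wildtype animals, which share no library with the separated ones. There 1617 of 6906 tested genes (23.4%) were called, 713 (10.3%) higher and 904 (13.1%) lower, from 15 libraries against 21 here. Of the 6876 genes tested in both groups, 1042 were called in both, all in the same direction. They make up 47.5% of the calls in separated animals and 64.6% of those in controls. Among the calls in separated animals, 2002 (91.3%) had the same sign in controls. Across the 6876 genes the log2 changes had a Pearson correlation of 0.73, given as a description over genes that come from the same libraries and are not independent of each other.

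**Figure D4:**
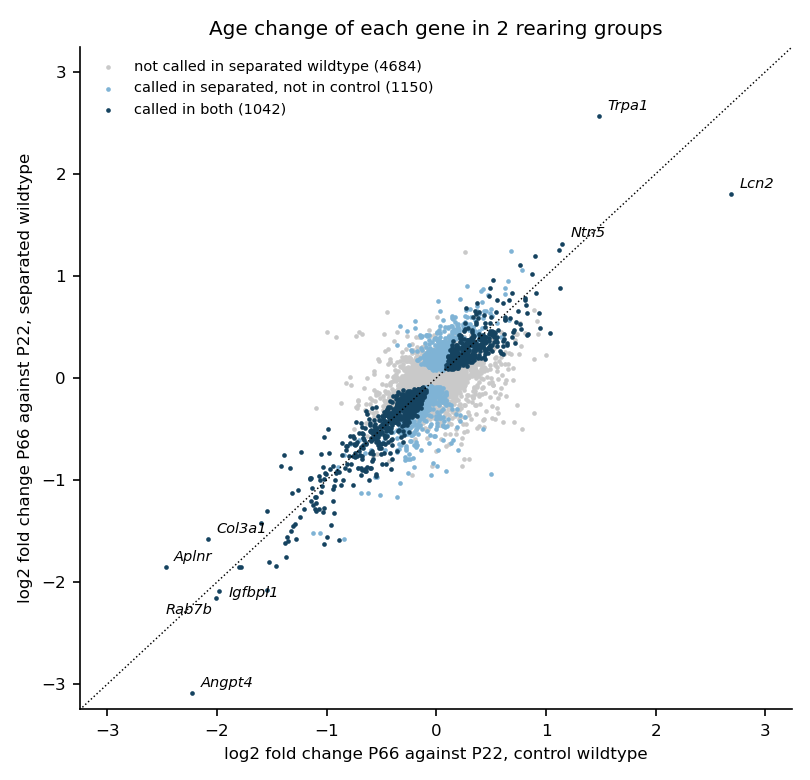
Log2 fold change from P22 to P66 of 6876 genes in control wildtype animals (horizontal axis) and in separated wildtype animals (vertical axis). The dotted line marks equal change, and dark points are the 1042 genes called in both groups. These lie at the lower left and the upper right, with Igfbpl1, Rab7b and Angpt4 at the bottom and Trpa1, Lcn2 and Ntn5 at the top.

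The test of the difference between separated and control wildtype animals called 0 of 7131 genes (0%) by edgeR, with 606 at an unadjusted p under 0.05 and a smallest adjusted p of 0.265. The 95% interval of the difference, not adjusted for the number of genes, reached a median of 0.19 to either side on the log2 scale. Differences under that size were not detectable in most genes. A call needed an adjusted p over 7131 genes, so larger differences could go uncalled too, as did those of Srrm4 and Chd2 given below. The gene with the smallest p was Slc10a4, a transporter-like protein of cholinergic and monoaminergic terminals. Its log2 change was -0.94 in separated animals and 0.50 in controls, a difference of -1.48 with an interval from -2.14 to -0.81. Its mean level was 2.85 CPM in control P66 animals, with an SD of 2.80, and 1.30 to 2.52 CPM in the other wildtype groups. It was the only gene called when 1 library was left out, without the control P66 animal C2-58 (adjusted p = 0.0493). Next came Srrm4, a neuronal splicing factor, with a difference of 0.35 (interval 0.18 to 0.52), Chd2, a chromatin remodeller, with 0.27 (0.13 to 0.42), and G6pd2 (-1.13) and Tas1r3 (-1.22), both near 1 CPM.

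The lists compare as follows. In controls 10 of the 18 myelin genes fell, all of them among the 13 that fell in separated animals, and the list medians were -0.53 and -0.69. Another 3 rose in controls, 2 of them also in separated animals. For Gsn the log2 change was -1.46 ± 0.17 in controls, and the difference from separated animals was -0.39 with an interval from -0.81 to 0.02. Marcksl1 had -1.04 in controls, with a difference of -0.02 (interval -0.19 to 0.15), and Igfbpl1 had -1.98, with a difference of -0.10 (-0.50 to 0.31). Of the cell cycle genes 21 fell in controls, 18 of them shared, with a median of -0.30 in both groups. Cell cycle genes that rose in controls numbered 5, and 1 of them rose in separated animals too. Collagen genes had medians of -0.40 in controls and -0.41 in separated animals. In the neuronal lists 1 of 12 glutamate receptor genes, 0 of 15 sodium and calcium channel genes and 1 of 20 postsynaptic genes rose in controls, where 10.3% of all genes were called higher from fewer libraries. The medians of these lists in controls were -0.05, -0.02 and 0.00, against 0.16, 0.08 and 0.07. Of the potassium channel genes 5 of 26 rose in controls and of the GABA genes 2 of 15, against 7 and 5 in separated animals. None of the genes in these lists differed between the groups past the threshold. Map2 changed by 0.07 in controls (difference 0.22, interval 0.02 to 0.43) and Hspa5 by -0.25 (difference 0.57, interval 0.24 to 0.89), neither past it. The cytosolic ribosomal protein genes rose in 16 of 36 cases in controls and in 2 in separated animals. Their medians were 0.11 and 0.01, and none of them differed between the groups past the threshold by edgeR (smallest adjusted p = 0.597). Choroid plexus medians were 0.08 in controls and -0.37 in separated animals. With the choroid plexus score as covariate, the difference between the groups was again called in 0 genes by edgeR (smallest adjusted p = 0.309). The part of that tissue in the differences of single lists was not tested.

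Separated knockout animals had fewer libraries, split unevenly over the cohorts (2 and 8 at P22, 5 and 2 at P66). There 685 of 6945 genes (9.86%) were called, 260 (3.74%) higher and 425 (6.12%) lower. Of these, 565 were also called in separated wildtype animals, all in the same direction, which is 25.7% of the wildtype and 83.0% of the knockout calls among the genes tested in both. The difference of the age changes was called in 0 of 7131 genes (0%) by edgeR, with 527 at an unadjusted p under 0.05 and a smallest adjusted p of 0.608. Igfbpl1 changed by -2.05 in the knockout, Marcksl1 by -1.01, Gsn by -1.52, Mki67 by -1.24 and Nos1 by 0.64.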

How the data were processed

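RNA sequencing counts of 69 mouse hippocampus libraries were used. The authors deposited raw counts of reads per gene in 1 table, not normalized, where each animal has a column. Tools named in the submitters' processing notes are cutadapt 1.16, FastQC 0.11.4, limma 3.34.9 and edgeR. Aligner, genome build, counting tool and strand setting were not given in the sources used here. As held, the table ends on chromosome 8, 1 broken record at its end was left out, and 116 genes were at 0 throughout. Of 9930 gene identifiers 9885 (99.5%) were found in GENCODE M21, 96.5% of them at the same position, so positions are on GRCm38. Of the 292 genes that may be named, 111 overlap a gene on the opposite strand.

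The 21 separated wildtype libraries were fitted with age and cohort by edgeR 4.0.16 (R 4.3.3), quasi-likelihood test, TMM normalization, filterByExpr (minimum count 10, minimum total 15) and Benjamini-Hochberg adjustment over all tested genes. The control wildtype and the separated knockout libraries were fitted alike. SEs are the size of the log2 change divided by the square root of the F statistic. Differences of age changes came from 1 fit of all 69 libraries with a term per group and for cohort. Gene lists are described by counts and medians, without a set test. Listed genes outside the table are not counted, so that 10 of 29 cholesterol and 8 of 31 chaperone genes were tested. The comparison and the gene lists were chosen with earlier results of these data known, and the libraries follow from their labels. Named genes are the 12 largest rises and falls whose mean log2 CPM is 0 or more, up to 6 called or 2 uncalled members per list, all members of 6 lists, and for the differences the 5 smallest p. Some further list members and other genes were named after their values were seen, as were Hbb-bs and Hbb-bt. Some list members are counted but not reported here by name. The script was tested on simulated data. Counts of pairs of libraries within an age differed by more than counting error (chi-square per degree of freedom 6.04 to 35.6 over 100 pairs). Litters are not named, so animals were treated as independent. Alternatives were DESeq2 1.42.0, limma-voom 3.58.1, RLE normalization, no filter, a stricter filter (1 CPM in 10 libraries), each cohort alone, no cohort term, all libraries in 1 fit, a choroid plexus score as covariate, leaving out C1-57 and C2-42, an adjusted p under 0.01 (0.1 for the differences), and leaving out each library. RefSeq promoters are of GRCm38.p6.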

Additional observations from a re-analysis of the deposited data

Results flagged for a closer look

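In 3 of 81 sets of 10 P66 values checked, the highest animal stood apart from the others by more than Dixon's 95% critical value of 0.466 for the gap divided by the range. Chance gives this in about 1 in 20 sets. Cldn11 had 274 CPM in animal C1-53, next to 201 CPM (gap over range 0.481), and Tspan2 had 309 CPM in the same animal, next to 237 CPM (0.485). Both values still lay below every P22 animal. Trpa1 had 6.85 CPM in animal C2-66, next to 4.16 CPM (0.493). The causes were not tested.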

How the results depend on the processing

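No paired analysis was possible because the P22 and P66 libraries came from different animals, which no label links. The labels number the animals anew in each cohort and environment, so equal numbers there do not link animals either. DESeq2 called 2334 genes with age (1162 higher, 1172 lower), limma-voom 2208 and RLE normalization 2218, beside 2198. Without a count filter 28 genes rose and 110 fell by at least 2-fold. In cohort 1 alone 1055 genes were called with age (414 higher, 641 lower), 18 of them at least 2-fold higher, and in cohort 2 alone 883 (374 higher, 509 lower), from fewer animals. At an adjusted p under 0.01, 1321 were called with age and 550 higher. Leaving out 1 library gave 1948 to 2299 genes called with age, 906 to 1102 higher, 1021 to 1197 lower, 8 to 12 at least 2-fold higher and 56 to 74 at least 2-fold lower. The age by rearing difference called 0 to 1 genes and the age by genotype difference 0 to 0. Of the 236 named genes that were called, 212 stayed called in every fit without 1 library. DESeq2, RLE normalization and the fit without a cohort term kept all 236, limma-voom 233, the choroid plexus covariate 225, leaving out C1-57 and C2-42 212, all 69 libraries in 1 fit 222, no count filter 228, an adjusted p under 0.01 172, cohort 1 alone 166 and cohort 2 alone 132. The stricter filter kept 229 of the 232 it tested. One reversed: Lcn2 changed by -0.84 in cohort 2 alone. Litters, hour of collection and the strand of counting limit all results, and genes beyond the first part of chromosome 8 were not analysed here.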
